A study of Homo sapiens with 12 samples.

Results

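The cytosolic HSP90 system was followed in SHI-1 cells through 10 genes out of the 14866 listed in the expression tables. They were taken by gene symbol and comprised the HSP90 genes HSP90AA1 and HSP90AB1, the cochaperone genes STIP1, AHSA1, CHORDC1, FKBP4, PTGES3 and CDC37, the HSP70 cochaperone gene BAG3 and the small heat shock protein gene HSPB1. All 10 were listed and all 10 were tested, since genes needed 10 normalized counts or more in 3 libraries or more and each member had that in all 12. SHI-1 is a human acute myeloid leukemia line that carries the MLL-AF6 fusion, so the data describe 1 line. RNA was sequenced from 12 libraries, 3 independent experiments for each of 4 groups. The groups received DMSO (the vehicle), 0.3 µM disulfiram with 1 µM copper (DSF), 5 µM niclosamide (NSM), or both drugs together (DSF+NSM), and were harvested after 16 h. Disulfiram is an alcohol aversion drug whose metabolite binds copper, and niclosamide is an anthelmintic. Whether the DMSO and NSM cultures also received copper is not stated.

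The deposited values are normalized counts, that is, estimated read counts divided by a factor for each library. The libraries held an estimated 10.2 to 19.0 M reads, and all levels below are normalized counts unless another scale is named. Summed over genes they came to 13.96 to 14.4 M per DMSO library, 14.9 to 15.3 M per DSF, 16.5 to 17.5 M per NSM and 22.7 to 25.6 M per DSF+NSM library. Of 10 myeloid markers, 10 stood at 10 or above in every library, with a summed level of 25861 to 73717, against 191 to 415 for 10 markers of other blood cells, of which 6 were listed. Of those 6, 3 also stood at 10 or above in every library. The T cell marker CD3E stood at 69.5 to 181, beside 11.9 to 142 for the myeloid CSF1R. MPO alone stood at 14453.5 to 62640, so the myeloid sum rests largely on 1 gene. The third NSM library stood apart, with rank correlations over genes of 0.939 and 0.950 with the other NSM libraries, against 0.980 to 0.996 for all other pairs within a group. For the 10 genes, calls that changed without it are given both ways. Counts over the lists of other genes come only from the fit of all 12 libraries.

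HSP90 is an ATP-driven chaperone dimer that completes the folding of kinases, steroid receptors and other client proteins, many of them oncoproteins in leukemia. HSP90AA1 encodes the stress-inducible isoform HSP90α and HSP90AB1 the constitutive isoform HSP90β, and cochaperones load clients, set the pace of ATP hydrolysis and stabilise the closed state. The transcription factor HSF1 raises many chaperone genes after proteotoxic stress by binding heat shock elements, which are inverted repeats of GAA. BAG3 releases clients from HSP70 and, with small heat shock proteins, passes misfolded proteins to autophagy.

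The start-site sequences are shown because heat shock elements are the best known control sequences of this gene group. RefSeq promoter windows on GRCh38.p14, each running from 250 bases before to 50 bases after a start site, were found for 9 of the 10 genes. FKBP4 is the remaining gene. They were searched on both strands for an element pair (GAANNTTC or TTCNNGAA), an element triple (GAANNTTCNNGAA or TTCNNGAANNTTC, each of which contains 2 overlapping pairs) and the core of the metal response element (TGCACNC or TGCGCNC). A pair was found for 5 of the 9 genes, counting any of a gene's windows, against 16.2% of all gene symbols with a window. A triple was found for 3 of the 9, HSP90AA1, HSP90AB1 and CHORDC1, against 0.608% of all symbols. The metal response core was found for 6 of the 9, against 33.4% of all symbols. In the 5 stretches printed here, 5′ to 3′ on the strand of the gene, capitals mark every match to the element pair, so a run longer than 8 capitals is an overlap of pairs. The HSP90AA1 stretch is chr14:102087045-102087294 on the minus strand, the 250 bases before a start site inside the gene's annotated bounds. The HSP90AB1 stretch is chr6:44247693-44247865 on the plus strand, also within the gene's bounds, and ends 78 bases before its start site, where an annotated exon of a coding gene begins. The CHORDC1 stretch is chr11:90223078-90223299 on the minus strand and ends 29 bases before the start site for the same reason. The HSPB1 stretch is chr7:76302423-76302672 and the BAG3 stretch chr10:119651130-119651379, both on the plus strand and the 250 bases before the start site. HSP90AA1 and HSP90AB1 have windows at other start sites too. Those held no pair, and the windows printed for these genes are the ones with matches.
HSP90AA1: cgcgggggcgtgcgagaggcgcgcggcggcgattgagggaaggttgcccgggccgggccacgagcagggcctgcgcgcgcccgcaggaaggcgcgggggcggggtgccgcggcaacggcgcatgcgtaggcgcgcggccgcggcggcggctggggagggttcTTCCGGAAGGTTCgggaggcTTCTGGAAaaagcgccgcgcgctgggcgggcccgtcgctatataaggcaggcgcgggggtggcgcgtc
HSP90AB1: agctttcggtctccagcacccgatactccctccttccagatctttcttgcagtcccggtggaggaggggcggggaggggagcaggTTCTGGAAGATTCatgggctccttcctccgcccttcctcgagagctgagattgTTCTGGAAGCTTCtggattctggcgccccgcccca
CHORDC1: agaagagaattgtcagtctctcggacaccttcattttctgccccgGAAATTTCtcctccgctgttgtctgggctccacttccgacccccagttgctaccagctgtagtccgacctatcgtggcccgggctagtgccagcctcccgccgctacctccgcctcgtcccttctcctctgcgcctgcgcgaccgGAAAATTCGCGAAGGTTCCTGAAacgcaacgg
HSPB1: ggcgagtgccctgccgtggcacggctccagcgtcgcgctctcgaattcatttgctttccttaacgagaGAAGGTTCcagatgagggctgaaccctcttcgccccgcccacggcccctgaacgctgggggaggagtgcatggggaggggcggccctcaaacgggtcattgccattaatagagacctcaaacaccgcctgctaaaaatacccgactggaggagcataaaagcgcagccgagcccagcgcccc
BAG3: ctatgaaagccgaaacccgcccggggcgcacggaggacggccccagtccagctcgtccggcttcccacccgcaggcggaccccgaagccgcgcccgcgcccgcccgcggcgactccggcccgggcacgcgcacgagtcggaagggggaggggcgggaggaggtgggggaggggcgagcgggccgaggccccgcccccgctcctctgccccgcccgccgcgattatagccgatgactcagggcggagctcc
The HSP90AA1 triple began 88 bases before the start site, and a further pair stood at 68 bases. HSP90AB1 held triples at 165 and 112 bases, and CHORDC1 held 3 overlapping triples, the farthest at 60 bases. HSPB1 held a single pair at 182 bases. The only STIP1 pair began 14 bases into the transcribed part of its second window. BAG3, AHSA1, PTGES3 and CDC37 held no pair, which says only that these letters are not in these windows.

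All 10 genes were higher in DSF+NSM than in DMSO, and in each of them the lowest DSF+NSM library lay above the highest DMSO library. The ratio of the group means ran from 1.58 for CDC37 to 117 for BAG3. BAG3 was the 1 member called higher after DSF, whereas after NSM 5 members fell, led by HSP90AA1, and none was called higher. Calls are at an adjusted p under 0.05 in limma, fitted on log2(normalized count + 1) over all 13502 genes tested with Benjamini-Hochberg adjustment. In DSF against DMSO 1 of the 10 was called, while 17.8% of all genes were called in either direction. Of the 10, 4 lay wholly above and 3 wholly below the DMSO libraries in DSF, against 33.4% and 27.6% of all genes, and BAG3 was the 1 called higher, against 11.9%. With only the DSF and DMSO libraries fitted, 5 of the 10 were called, as were 7289 of the 13502 genes. HSP90AB1, CDC37 and HSPB1 then joined BAG3 on the higher side, and PTGES3 was called lower. In NSM against DMSO 5 of the 10 were called lower, against 23.7% of all genes, and the same 5 lay wholly below the DMSO libraries, against 27.9%. In DSF+NSM against DMSO 10 of the 10 were called higher, against 28.3% of all genes, and 9 of the 10 were called with a log2 fold change of at least 1, against 16.9%. Non-overlap of the libraries, with DSF+NSM higher, held for 36.4% of all genes.

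The median log2 fold change of the 10 genes against DMSO was 0.0045 with DSF, -0.66 with NSM and 2.59 with both drugs. The corresponding medians over all genes tested were 0.047, 0.014 and 0.030. These comparisons share the DMSO libraries. In bulk RNA, more transcript per cell and a larger share of cells that carry it cannot be told apart. The sum of normalized counts also rose with DSF+NSM, and giving every library the same sum moved the median of all genes to -0.74 in DSF+NSM against DMSO. The split of called genes then went from 3816 higher and 3309 lower to 1534 higher and 7582 lower. Under that scaling 9 of the 10 members were still called higher and CDC37 was not called. Ribosomal RNA genes took 1.11% to 2.84% of normalized counts in DMSO and 6.35% to 7.96% in DSF+NSM, and the count of 9 was the same after they were left out of the sums.

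**Figure D1:**
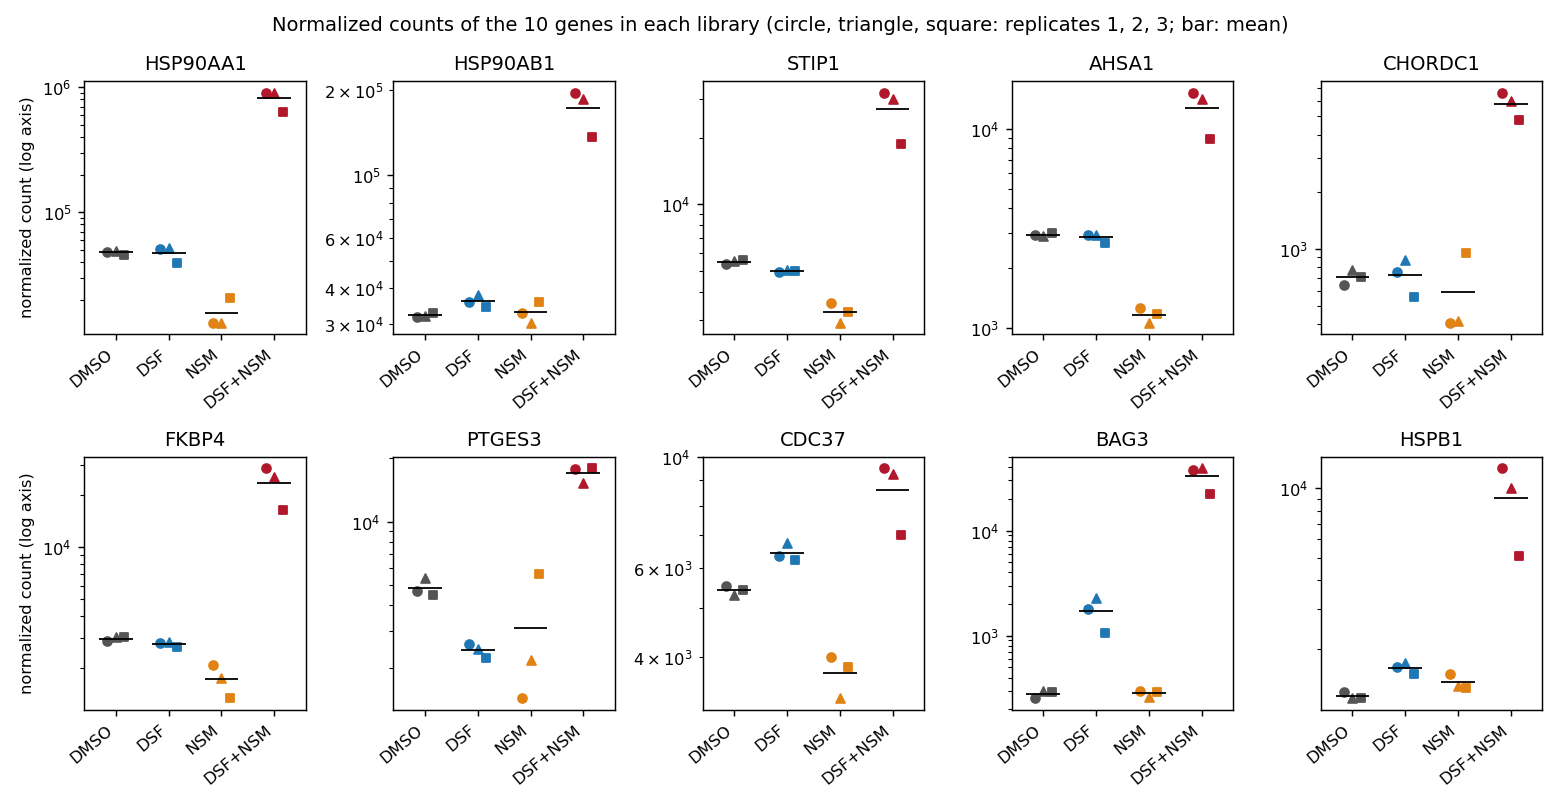
Normalized count of each of the 10 genes (vertical log axis, a separate range for each panel) in the 12 libraries by group, with circles, triangles and squares for replicates 1, 2 and 3 and a bar at the mean. In every panel the 3 DSF+NSM points lie above all 9 others, the closest approach being CDC37, where the lowest DSF+NSM library stood at 7013 and the highest DSF library at 6750. Over all genes tested, DSF+NSM libraries lay wholly above DMSO for 36.4% and wholly above NSM for 22.2%. The share lying above all 9 was not counted.

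HSP90AA1, the stress-inducible HSP90 gene, stood at 47731, 49362 and 45766 in DMSO and at 50674, 51963 and 39553 in DSF libraries. It stood at 13076, 13086 and 20462 in NSM and at 908983, 906127 and 629743 in DSF+NSM libraries. The DSF libraries thus spread around the DMSO range, the NSM libraries lay below it and the DSF+NSM libraries far above it. The mean was 17.1 times the DMSO mean in DSF+NSM and 0.326 times in NSM. The log2 fold change was 4.08 ± 0.19 (SE, n = 3 per group) in DSF+NSM (adjusted p = 1.27e-08, limma) and -1.65 in NSM (adjusted p = 2.70e-05). In DSF it was -0.02 with a 95% interval of -0.44 to 0.40. Ranked by normalized count within each library, without correction for length, HSP90AA1 was gene 14 to 16 of the transcriptome in DMSO, 99 to 155 in NSM, and 2, 2 and 3 in the DSF+NSM libraries.

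HSP90AB1, the constitutive gene, was not called under either drug alone in the fit of all 12 libraries and rose under both. Its levels were 31739, 31944 and 32618 in DMSO, 35805, 37800 and 34384 in DSF, and 32831, 30254 and 35680 in NSM libraries. In DSF+NSM libraries they were 195473, 184938 and 136093, with a mean 5.36 times that of DMSO and a log2 fold change of 2.41 ± 0.13 (SE, adjusted p = 4.36e-08). The DSF libraries all lay above the DMSO libraries, but the difference of 0.16 was not called (95% interval -0.12 to 0.45, adjusted p = 0.425). With only the DSF and DMSO libraries fitted it was called (adjusted p = 0.0348, limma). NSM libraries overlapped those of DMSO, at a difference of 0.03 (95% interval -0.25 to 0.32).

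The HSP90 genes therefore moved by unequal amounts. The ratio of HSP90AA1 to HSP90AB1 normalized counts, which does not depend on the scaling of libraries, was 1.504, 1.55 and 1.40 in DMSO and 1.42, 1.37 and 1.15 in DSF libraries. It was 0.398, 0.433 and 0.573 in NSM and 4.65, 4.90 and 4.63 in DSF+NSM libraries. The ratio is not corrected for transcript length, so only its change between groups is read. Its log2 mean was 0.57 ± 0.07 in DMSO libraries (SD, n = 3), 0.39 ± 0.16 with DSF, -1.11 ± 0.28 with NSM and 2.24 ± 0.05 with both. An exact permutation test of the F statistic over the 369600 assignments of 12 libraries to 4 groups gave p = 0.00013, where the smallest possible value is 6.49e-05. The genes were chosen with earlier results of these libraries known, so this p is a description. For any pair of groups 3 libraries against 3 cannot go below an exact p of 0.1, the value reached by NSM and by DSF+NSM against DMSO, while DSF against DMSO gave 0.2. Per kilobase of the canonical transcript, HSP90AA1 and HSP90AB1 were the highest and next highest of the 10 genes in DMSO (14752 ± 558 and 12564 ± 180, SD), and in NSM HSP90AB1 was the higher (12885 ± 1062 against 4815 ± 1320).

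**Figure D2:**
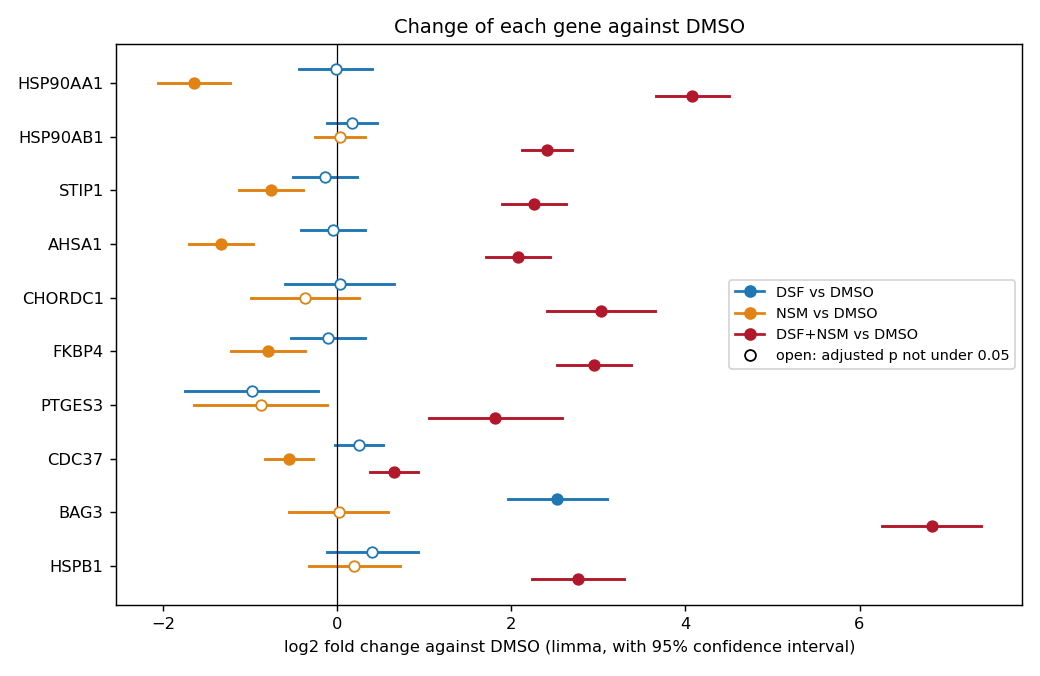
Log2 fold change of each gene against DMSO (horizontal axis) with its 95% confidence interval from limma for DSF, NSM and DSF+NSM, filled where the adjusted p was under 0.05. All 10 DSF+NSM points are filled and to the right of 0, from 0.65 for CDC37 to 6.83 for BAG3, while BAG3 is the 1 filled DSF point and the 5 filled NSM points are left of 0.

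Of the 6 cochaperone genes, 4 were called lower after NSM (23.7% of all genes) and all 6 called higher after DSF+NSM (28.3% of all genes). STIP1 (HOP), which bridges HSP70 and HSP90, stood at 5340, 5519 and 5569 in DMSO, 4919, 5029 and 4960 in DSF, 3549, 2907 and 3245 in NSM, and 31989, 30044 and 18745 in DSF+NSM libraries. Its log2 fold change was -0.76 in NSM (adjusted p = 0.00267) and 2.26 ± 0.17 in DSF+NSM (SE, adjusted p = 5.19e-07). Its groups did not overlap, and the small step from DMSO to DSF of -0.14 was not called (95% interval -0.51 to 0.23).

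AHSA1 (AHA1), the activator of the HSP90 ATPase, fell in NSM from 2943, 2902 and 3003 in DMSO to 1257, 1067 and 1172. DSF libraries stood at 2937, 2950 and 2687, and DSF+NSM libraries at 15200, 14112 and 8935. The log2 fold changes were -0.05 in DSF (95% interval -0.41 to 0.32), -1.34 in NSM (adjusted p = 4.75e-05) and 2.07 ± 0.17 in DSF+NSM (SE, adjusted p = 1.01e-06). From NSM to DSF+NSM the mean rose 10.9-fold, the difference being 3.42 on the log2 scale (adjusted p = 3.41e-08).

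FKBP4 (FKBP52), an immunophilin of steroid receptor complexes, had levels of 2863, 3010 and 3020 in DMSO, 2803, 2818 and 2658 in DSF and 2096, 1763 and 1337 in NSM libraries. In DSF+NSM it reached 28675, 25458 and 16541, a mean 7.95 times that of DMSO. All NSM libraries lay below and all DSF+NSM libraries above those of the other groups, with log2 fold changes of -0.80 (adjusted p = 0.00495) and 2.95 ± 0.20 (SE, adjusted p = 1.84e-07) against DMSO. The DSF libraries lay just below those of DMSO, at -0.10 (95% interval -0.53 to 0.32).

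CHORDC1 encodes an HSP90-binding protein of the CHORD family. It stood at 644, 767 and 709 in DMSO, 757, 874 and 558 in DSF, 407, 415 and 954 in NSM, and 6660, 6020 and 4751 in DSF+NSM libraries. The DSF+NSM mean was 8.22 times that of DMSO, a log2 fold change of 3.03 ± 0.29 (SE, adjusted p = 3.57e-06). In NSM the first 2 libraries lay below the DMSO range and the third above it, and the difference of -0.37 was not called (adjusted p = 0.304). Without the third NSM library it was -0.78 and called (adjusted p = 0.00106).

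PTGES3 (p23) binds the closed, ATP-bound HSP90 dimer, and the order of its DSF and NSM levels depended on the third NSM library. It stood at 4684, 5363 and 4459 in DMSO and at 2607, 2461 and 2246 in DSF libraries, which did not overlap. NSM libraries were scattered at 1437, 2197 and 5654, and DSF+NSM libraries stood at 17820, 15282 and 17962. The change in DSF, -0.99, was not called (95% interval -1.75 to -0.22, adjusted p = 0.0707), and was called when the third NSM library was left out of the shared estimate of the spread (adjusted p = 5.02e-05) or the first (adjusted p = 0.0195). It was also called with only the DSF and DMSO libraries fitted (adjusted p = 4.21e-08). The change in NSM, -0.88, was not called (adjusted p = 0.0532) and became -1.44 without the third NSM library (adjusted p = 1.11e-06). The rise in DSF+NSM of 1.82 ± 0.35 (SE) was called (adjusted p = 0.000895).

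CDC37, which delivers kinase clients to HSP90, had the smallest change of the 10 genes in DSF+NSM against DMSO. It stood at 5528, 5313 and 5440 in DMSO, 6359, 6750 and 6239 in DSF, 3989, 3303 and 3816 in NSM, and 9511, 9251 and 7013 in DSF+NSM libraries. No groups overlapped. The change in NSM was -0.56 (adjusted p = 0.00339), and that in DSF+NSM was 0.65 ± 0.13 (SE, adjusted p = 0.00104) but turned to -0.13 (adjusted p = 0.268) with libraries scaled to equal sums. Against DSF it was 0.40 higher in DSF+NSM (adjusted p = 0.0234), and with equal sums the value was -0.29 (adjusted p = 0.0315). This call was also lost without replicate 1 or 3 of DSF or replicate 1 or 2 of DSF+NSM (adjusted p = 0.0696, 0.0739, 0.0988 and 0.0923). The kit used does not mark the strand of a read, and in GENCODE 44 exons of HSP90AA1, STIP1, AHSA1 and FKBP4 share 83 to 445 bases with an exon of a gene on the opposite strand, and CDC37 shares 81 bases with MIR1181 on the same strand, so reads there cannot be assigned with certainty. HSP90AB1, CHORDC1, PTGES3, BAG3 and HSPB1 had no such overlap. Of 30 annotated pseudogenes of the 10 genes, 1 was listed, HSP90AB4P, at 1.16 to 50.8.

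BAG3 was the member that rose most and the 1 called in DSF in the fit of all 12 libraries. It stood at 254, 298 and 292 in DMSO and at 1785, 2270 and 1053 in DSF libraries, 6.05 times higher in the mean. NSM libraries, at 300, 261 and 291, overlapped those of DMSO. In DSF+NSM libraries BAG3 reached 37733, 39120 and 22203, a mean 117 times that of DMSO and 19.4 times that of DSF. The log2 fold change against DMSO was 2.53 ± 0.26 in DSF (SE, adjusted p = 5.43e-05), 0.01 in NSM (95% interval -0.56 to 0.59) and 6.83 ± 0.26 in DSF+NSM (SE, adjusted p = 2.32e-09). DSF+NSM against DMSO placed BAG3 38th by fold change among the 13502 genes tested. By level it went from gene 7065 to 7547 of the DMSO libraries to 1127 to 2820 in DSF and 86 to 127 in DSF+NSM. Per kilobase of transcript it was the lowest of the 10 genes in DMSO (110 ± 9.4, SD) and ranked 3 in DSF+NSM (12893 ± 3667).

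HSPB1 (HSP27), an ATP-independent holdase that keeps unfolding proteins from aggregating, stood at 1309, 1226 and 1234 in DMSO and at 1671, 1745 and 1565 in DSF libraries. NSM libraries stood at 1568, 1393 and 1360, and DSF+NSM libraries at 12217, 10053 and 5070. Every treated library therefore lay above the DMSO range. The differences of 0.40 in DSF (95% interval -0.12 to 0.93, adjusted p = 0.275) and 0.19 in NSM (95% interval -0.33 to 0.72) were not called. The DSF difference was called without the third DSF+NSM library (adjusted p = 0.0283) and with only the DSF and DMSO libraries fitted (adjusted p = 0.000118). The rise in DSF+NSM was 7.25-fold in the mean and 2.76 ± 0.24 on the log2 scale (SE, adjusted p = 1.81e-06).

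All 10 genes were also called higher in DSF+NSM than in either drug alone. The background was 21.7% of genes called higher against DSF and 20.3% against NSM. The DSF+NSM libraries lay wholly above the NSM libraries for all 10, against 22.2% of all genes. The median log2 difference of the 10 was 2.60 against DSF and 3.21 against NSM. HSP90AA1 was 17.2 times higher than in DSF and 52.4 times higher than in NSM. In the direct comparison of DSF with NSM, 6 of the 10 were called, all higher in DSF (background 23.4%): BAG3 (2.51), HSP90AA1 (1.63), AHSA1 (1.30), CDC37 (0.80), FKBP4 (0.70) and STIP1 (0.62, adjusted p = 0.0107). PTGES3 was at -0.10 (95% interval -0.86 to 0.66), and at 0.45 and called without the third NSM library (adjusted p = 0.0184). CHORDC1 was at 0.40 (adjusted p = 0.276), and at 0.80 and called without that library (adjusted p = 0.00117). Without it 8 of the 10 were called, beside 7045 of all genes, 3560 of them higher in DSF. Ordered by level, DSF+NSM was the highest group for each of the 10 genes, a share that was not counted over all genes. The step down to the next group was called for each of the 10. For CDC37 this step, from DSF+NSM to DSF, turned to the opposite direction with equal sums and lost its call without any 1 of the 4 libraries named above. In the fit of all 12 libraries the steps between DMSO and DSF were not called for HSP90AA1, STIP1, AHSA1, CHORDC1, FKBP4 or CDC37. For HSP90AB1 and HSPB1 none of the steps among DSF, NSM and DMSO was called in that fit.

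For all 10 genes the log2 change with both drugs was larger than the changes with DSF and with NSM added together, as tested by the interaction term in limma, while 12.1% of all genes were called in this direction. The excess was 5.74 ± 0.27 (SE) for HSP90AA1, 4.29 ± 0.37 for BAG3, 3.85 ± 0.28 for FKBP4 and 3.68 ± 0.50 for PTGES3. It was 3.46 ± 0.24 for AHSA1, 3.37 ± 0.41 for CHORDC1, 3.16 ± 0.24 for STIP1, 2.21 ± 0.19 for HSP90AB1, 2.17 ± 0.34 for HSPB1 and 0.96 ± 0.18 for CDC37. The adjusted p ran from 3.98e-07 for HSP90AA1 to 0.00239 for CDC37. HSP90AA1 ranked 9th and BAG3 68th of the 13502 genes by this excess. For HSP90AA1, STIP1, AHSA1, FKBP4 and CDC37 the added changes include a called fall under NSM alone. With libraries scaled to equal sums the excess was smaller, from 0.54 for CDC37 (adjusted p = 0.0138) to 5.32 for HSP90AA1, and called for all 10 genes.

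**Figure D3:**
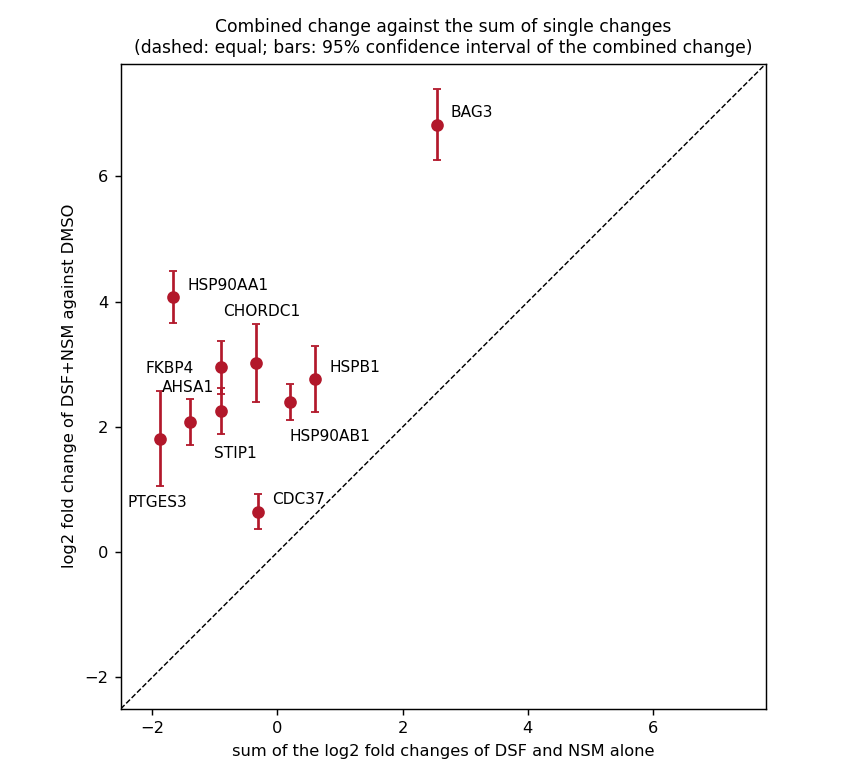
Log2 fold change of DSF+NSM against DMSO (vertical axis, with its 95% confidence interval) against the sum of the log2 fold changes of DSF and NSM alone (horizontal axis) for the 10 genes, with a dashed line where they are equal. All 10 points lie above the line, HSP90AA1 by 5.74 and CDC37 by 0.96.

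The 10 genes together made up 0.730% ± 0.011 of all normalized counts in DMSO libraries (SD, n = 3), 0.705% ± 0.068 with DSF, 0.372% ± 0.048 with NSM and 4.57% ± 0.64 with both. The exact permutation test over 4 groups gave p = 0.000649. The 10 genes were chosen with earlier results of these libraries known, so this p is a description and does not test the choice. NSM libraries (0.344% to 0.427%) lay below and DSF+NSM libraries (3.83% to 4.94%) above the DMSO range of 0.718% to 0.738%, and DSF libraries (0.627% to 0.748%) spread across it. HSP90AA1 alone went from 0.336% to 3.31% of all normalized counts between DMSO and DSF+NSM. Within the summed counts of the 10 genes its share was 46.0% with DMSO, 44.3% with DSF, 24.4% with NSM and 72.5% with both drugs. Between DMSO and DSF+NSM the summed normalized counts of all genes rose by 10.3 M, of which the 10 genes held 1.02 M, or 9.93%. CDC37 was the exception within its group, at 0.0383% ± 0.0013 of all normalized counts in DMSO and 0.0350% ± 0.0035 in DSF+NSM.

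**Figure D4:**
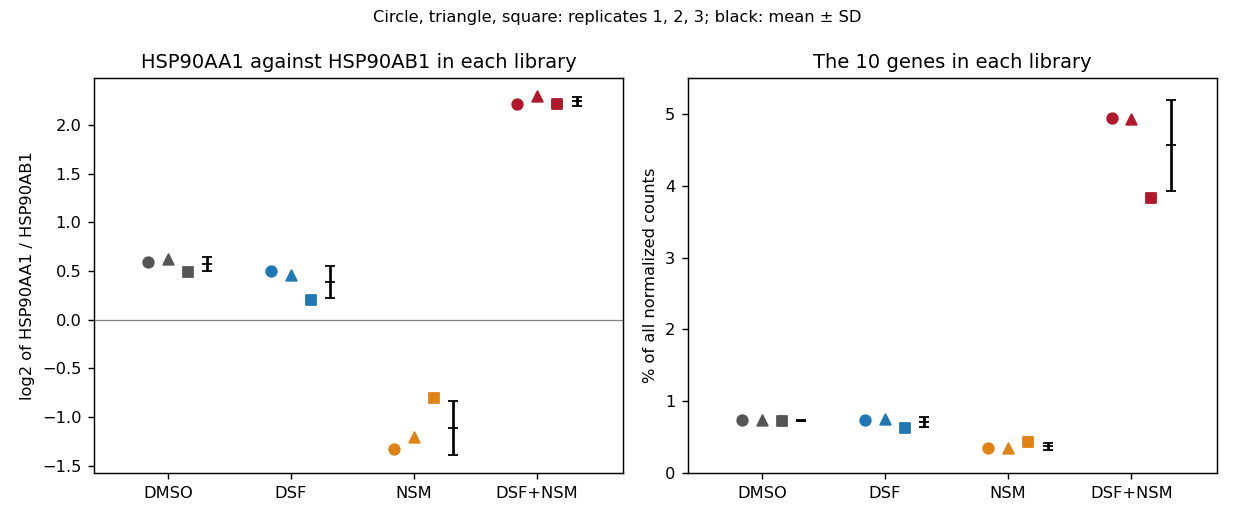
Left, log2 ratio of HSP90AA1 to HSP90AB1 normalized counts in each library; right, share of all normalized counts taken by the 10 genes in each library, in percent, with circles, triangles and squares for replicates 1, 2 and 3 and the mean ± SD in black. DSF+NSM stands above and NSM below the other groups in both panels, at log2 ratios of 2.24 and -1.11 and shares of 4.57% and 0.372%.

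The third DSF+NSM library was the lowest of its group for 9 of the 10 genes, PTGES3 being the exception, while 46.0% of all genes tested were lowest there. Relative to the mean of the first 2 libraries it stood at 0.455 for HSPB1, 0.578 for BAG3, 0.694 for HSP90AA1 and 1.08 for PTGES3, and the median of all genes was 0.959. The third DSF library was also the lowest of its group for 9 of the 10, while 38.7% of all genes tested were lowest there. It stood at 0.519 for BAG3 and 0.771 for HSP90AA1 (median of all genes 0.989). In the third NSM library PTGES3 stood at 3.11, CHORDC1 at 2.32 and HSP90AA1 at 1.56 times the mean of the first 2, with a median over all genes of 0.964. Leaving out any 1 of the 12 libraries left all 10 genes called higher in DSF+NSM against DMSO.

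Genes with the most similar pattern were found by the root-mean-square difference of log2 values, centred on the DMSO mean, over the 12 libraries, among 10795 genes tested with a mean of at least 50. For HSP90AA1 they were HSPH1 (0.41), which encodes HSP110, then NRARP (0.42), MAP1A (0.55), KLHL25 (0.68) and LOC100506473 (0.71). For HSP90AB1 they were ZNF669 (0.18), ZC3HAV1 (0.25), FZD7 (0.27), CWC25 (0.28) and ST13 (0.29), the last of which encodes the HSP70-interacting protein HIP. For BAG3 they were SERPINH1 (0.42), the collagen chaperone HSP47, then DNAJB1 (0.53), an HSP40, GADD45G (0.58), MAFA (0.64) and TUBB3 (0.66). HSPB1 was closest to HSP90AB1 (0.29), followed by RAB3A (0.30), DNAJB5 (0.30), CWC25 (0.32) and TSPYL2 (0.34).

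Other genes of the same machinery were counted in lists written from general knowledge. Of 28 further HSP90 cochaperone genes, 27 were tested and 9 were called higher and 9 lower in DSF+NSM against DMSO (28.3% and 24.5% of all genes), with a median log2 fold change of 0.04, against 2.59 for the 10 genes and 0.03 for all genes. None of the 27 was called in DSF (17.8% of all genes). All-gene calls in DSF against DMSO rose from 2405 to 5551 without the third NSM library and to 7289 with only those groups fitted. The 27 were not counted under these settings, so their 0 calls do not show that DSF left them unchanged. In NSM 4 of the 27 were called higher and 9 lower (25.4% and 23.7% of all genes). The largest changes in DSF+NSM were falls of TTI1 (-1.99) and TELO2 (-1.54), which stabilise PI3K-related kinases with HSP90, and a rise of FNIP1 (1.40), a folliculin partner that slows the HSP90 ATPase. HSP90B1, the HSP90 of the endoplasmic reticulum, rose by 0.54 (adjusted p = 0.0128), whereas TRAP1, that of mitochondria, was at -0.21 (adjusted p = 0.244).

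Of the other 5 BAG family genes, 1 was called higher, BAG1 (0.82, adjusted p = 0.000219), and 1 lower, BAG5 (-1.10, adjusted p = 6.50e-05), in DSF+NSM against DMSO, where 28.3% of all genes were called higher and 24.5% lower. Of 9 further small heat shock protein genes, 3 were listed and 2 tested. CRYAB (αB-crystallin) was listed at 0 in every DMSO and NSM library, at 32.7 to 112 in DSF and at 486 to 1218 in DSF+NSM libraries, so no fold change is given. HSPB11, a ciliary transport protein despite its symbol, fell by 1.19 on the log2 scale (adjusted p = 0.00127). Of 7 tested partners of BAG3 in selective autophagy, 4 were called higher and 1 lower in DSF+NSM against DMSO, with a median of 1.23, beside the same shares of all genes. The cargo receptor SQSTM1 (p62) rose by 4.55, from a mean of 2114 in DMSO to 49743, the autophagosome protein MAP1LC3B by 2.42 and the HSP70 HSPA8 by 2.34. SQSTM1 was called higher in DSF (2.38) and in NSM (2.12) as well, and its combined change differed from their sum by 0.06 (95% interval -0.55 to 0.66, adjusted p = 0.902).

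In a list of HSF1 and 15 other heat shock response genes, 14 of 16 were called higher and 0 lower in DSF+NSM against DMSO (28.3% and 24.5% of all genes), with a median of 2.85. In DSF 6 were called higher and 4 lower (11.9% and 5.95% of all genes), and in NSM 3 higher and 5 lower (25.4% and 23.7%). The HSP70 genes HSPA1A (9.74) and HSPA1B (9.12), near-identical copies whose reads the counting could split, and DNAJB1 (7.73) changed most. HSF1 itself stood at 861 to 912 in DMSO, 1076 to 1183 in DSF, 663 to 1615 in NSM and 1177 to 1236 in DSF+NSM libraries. In the fit of all 12 libraries its difference of 0.45 in DSF+NSM was not called (adjusted p = 0.148, limma), nor was that in DSF (0.35) or NSM (0.38). The DSF and the DSF+NSM libraries of HSF1 lay wholly above those of DMSO, which held for 33.4% and 36.4% of all genes. A fit of HSF1 without the third NSM library is not given. These lists, like the 10 genes, were written with earlier results of the same libraries known, so their counts are descriptions.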

How the data were processed

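RNA-seq of 12 SHI-1 libraries, 3 from independent experiments in each of 4 groups, was analysed. For every library the authors deposited a table of gene signal, namely counts normalized with DESeq2, in a format that declares 24 columns per the file headers; 12 libraries are used here. The supplementary methods name trimmomatic, STAR and Salmon on GRCh38, whereas the submitters' processing notes list Bowtie2 and featureCounts on hg38, and which of these made the tables is not settled. The tables head the vehicle columns CTRL where the labels say DMSO. The labels name RPMI medium and the supplement IMDM. Per library 27.8% to 30.3% of nonzero values were whole multiples of the smallest step (tolerance 0.001), so read counts were not recovered, no count model was fitted, and the depth given is the sum divided by that step.

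Values were taken as log2(value + 1), a scale that understates changes of low genes, and 13502 genes with at least 10 in 3 or more libraries were fitted by group means over the 12 libraries with limma-trend and robust variance moderation (limma 3.58.1, R 4.3.3), without a replicate block. There were 7 contrasts, Benjamini-Hochberg adjustment over all genes and a threshold of 0.05. Ratios and shares were tested with an exact permutation test in Python 3.11.15. Scripts were tested on simulated data. Positions, exon overlaps and lengths came from GENCODE 44, promoters from RefSeq on GRCh38.p14. Named are the 10 genes, up to 3 called genes with the largest change from each list, HSF1, and the 5 nearest patterns of HSP90AA1, HSP90AB1, BAG3 and HSPB1. TRAP1, outside this rule, was named after its values were seen. The members, lists and tests were chosen with earlier results of these data known. Alternatives were other scalings, pseudocounts of 0.1 and 10, other filters, only the groups compared, library weights, blocking on the replicate number and omitting each library in turn. The estimation of the library weights gave a warning about its convergence, so results under that setting are less certain.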

Additional observations from a re-analysis of the deposited data

Results flagged for a closer look

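Each of the 10 genes was singled out because the effect of NSM differed with and without DSF, as tested by the interaction term in limma (DSF+NSM change minus the DSF and NSM changes, log2 scale, against DMSO). The difference was 5.742 for HSP90AA1 (adjusted p = 3.98e-07), 2.208 for HSP90AB1 (2.30e-05), 3.163 for STIP1 (1.05e-05), 3.463 for AHSA1 (6.71e-06) and 3.374 for CHORDC1 (0.000166). It was 3.854 for FKBP4 (7.56e-06), 3.685 for PTGES3 (0.000302), 0.9573 for CDC37 (0.00239), 4.287 for BAG3 (2.78e-05) and 2.168 for HSPB1 (0.000782). For all 10 the lowest DSF+NSM library lay above the highest NSM library, which held for 22.2% of all genes tested. The interaction was called in this direction for 12.1% of all genes. Dixon's test of an outlying sample was not applied to the groups of 3 libraries.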

How the results depend on the processing

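Over 1530 alternative values for the 10 genes and 7 contrasts, 1472 kept their direction and side of the threshold and 29 changed sign. Of the others, which kept their sign, 25 passed the threshold newly and 4 no longer passed it. Some of the 29 also crossed the threshold and are counted only as changes of sign. The cause of these shifts was not tested. The rises in DSF+NSM against DMSO and NSM and the interaction were called under every alternative, except CDC37 against DMSO with equal sums (-0.1344) and with equal sums without rRNA genes (-0.055). Against DSF these gave -0.2853 and -0.2384 for CDC37. The members called in DSF against DMSO went from 1 to 5 with only the groups compared, where 7289 of the 13502 genes were called. They also went to 5 with library weights, where 8171 genes were called. Under both settings those added were HSP90AB1, PTGES3, CDC37 and HSPB1. Library weights moved the members called from 5 to 8 in NSM against DMSO (11107 genes called) and from 6 to 10 in DSF against NSM (10369 genes called).

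Leaving out 1 library at a time, 1 to 2 members were called in DSF against DMSO. The count was 2 without NSM replicate 1, NSM replicate 3 or DSF+NSM replicate 3. Members called were 5 to 7 in NSM against DMSO, 9 to 10 in DSF+NSM against DSF and 6 to 8 in DSF against NSM. CHORDC1 and PTGES3 joined in NSM against DMSO without NSM replicate 3, where all-gene calls rose from 6635 to 8076. All-gene calls ranged from 4656 to 8108 in DSF+NSM against DSF and from 4582 to 7045 in DSF against NSM. Both ranges were highest without NSM replicate 3. Of the signs that changed, those in DSF against DMSO were 0.0103 for HSP90AA1 with library weights and, for CHORDC1, -0.0715 (equal sums), -0.0391 (without rRNA genes) and -0.0178 (median of ratios). In NSM against DMSO they were -0.2361, -0.2312 and -0.0814 for HSP90AB1 and -0.2537, -0.2487 and -0.1322 for BAG3 (equal sums, without rRNA genes, library weights), and -0.0743 and -0.0694 for HSPB1 (equal sums, without rRNA genes). PTGES3 in DSF against NSM gave 0.0691, 0.0966 and 0.1812 under the same 3 settings. With 1 library left out the ranges were -0.0884 to 0.1085 for HSP90AA1 and -0.116 to 0.2064 for CHORDC1 in DSF, -0.0264 to 0.0926 for HSP90AB1 and -0.0575 to 0.0744 for BAG3 in NSM, and -0.5342 to 0.4537 for PTGES3 in DSF against NSM.

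Over all genes tested, the deviations of same-numbered libraries from their group means correlated at -0.0644 to 0.2784 (18 pairs, 2 above 0.1, both between NSM and DSF+NSM), so the numbers were not taken to pair the libraries. Among the 10 genes, replicate 3 was the lowest library for 9 in DSF and for 9 in DSF+NSM (38.7% and 46.0% of all genes tested). A replicate block called 6 members in NSM against DMSO, where PTGES3 (-0.883) passed (adjusted p = 0.0483), and changed no other call of the 10 genes. Calls over all genes in DSF against DMSO went from 2405 to 7289 with only the groups compared, 8171 with library weights and 911 to 5551 without 1 library, the highest without NSM replicate 3. Library weights also raised NSM against DMSO from 6635 to 11107, DSF+NSM against DSF from 5818 to 9120, DSF+NSM against NSM from 5212 to 9782, DSF against NSM from 5991 to 10369 and the interaction from 3527 to 8933 (6175 without NSM replicate 3). Only the groups compared gave 2473 for DSF+NSM against NSM and 3970 for DSF against NSM. Equal sums moved the split of higher and lower calls from 1601 and 804 to 1209 and 1247 in DSF, from 3430 and 3205 to 2218 and 4510 in NSM, from 2928 and 2890 to 985 and 7258 in DSF+NSM against DSF, from 2736 and 2476 to 1326 and 6065 against NSM, from 3159 and 2832 to 4091 and 1910 in DSF against NSM, and from 1632 and 1895 to 916 and 3868 in the interaction.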
